A study of Mus musculus with 6 samples.

Results

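Solute carriers (Slc genes) are the largest superfamily of membrane transporters, and the expressed members were described here in macrophages of LLC tumors. A gene was a member when its symbol began with Slc and a number and when it had a count of 100 or more in at least 3 of the 6 libraries, with Slc7a2, Slc2a1, Slc16a3, Slc40a1 and Slc11a1 left out by name. Of 22377 genes in the table, 311 were Slc genes, and 167 of those were members. The other Slc genes were the 5 left out by name and 139 below the count. Members were thus chosen by their counts in all libraries, without regard to the groups, 155 members were at 100 or more in every library, and 0 members entered through 1 group alone.

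The study asked what a reduced dose of Npm1, which encodes the nucleolar chaperone nucleophosmin, does to tumor-associated macrophages (TAMs). LLC is a mouse Lewis lung carcinoma cell line, grown under the skin of mice of both sexes, and macrophages positive for CD45, CD11b and F4/80 were sorted from the tumors. The 3 wt libraries came from Npm1+/+ mice, and the 3 libraries labelled ko, with the treatment label knockdown, came from Npm1+/- mice, which keep 1 allele in every cell because loss of both is lethal in the embryo, so that the tumor host and not the macrophage alone was heterozygous. The labels give no age or sex for a library, and the labels name tumor tissue as the source where the methods name sorted cells. The labels call the libraries separate biosamples and do not tie each to an animal. The legend of the study's heatmap of these data names fewer individual mice per group than there are libraries here, so p-values measure the spread between these libraries, which may be in part technical.

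Total counts ran from 36550775 to 38147320 per library. Levels per gene are given as CPM, in which counts were set on one library size with factors from the trimmed mean of M values (TMM). Npm1 itself was at 142, 380 and 381 CPM in wt replicates 1 to 3 and at 441, 499 and 343 CPM in ko replicates 1 to 3. The targeted mRNA was therefore not lower in the libraries labelled ko, with a log2 fold change of 0.51 ± 0.36 (SE, n = 3 libraries per group) and an edgeR adjusted p of 0.436. It was 0.16 without wt replicate 1, and every direction below is that of libraries labelled ko against wt libraries. Wt replicate 1 stood apart, at -108.5 on a first principal component that held 68.0% of the variance, whereas the other 5 libraries lay between -4.54 and 52.0. The macrophage markers were present in every library and all 12 of 12 had lower estimates in the libraries labelled ko, with a summed level of 21350 to 26620 CPM in wt and 12890 to 21850 CPM in ko. All 5 monocyte and all 8 neutrophil markers also had lower estimates, summed to 3239 to 4882 and 2001 to 2217 CPM in wt and to 1645 to 3035 and 900.8 to 1739 CPM in ko. All 8 fibroblast markers had higher estimates, summed to 23.8, 477 and 276 CPM in wt and 688, 545 and 346 CPM in ko. Most of each sum was Col3a1, at 19.0, 426 and 245 CPM in wt and 605, 474 and 308 CPM in ko. Col1a1 was at only 0.561 to 5.52 CPM. The 7 measured T cell markers, all with higher estimates, were summed to 22.4 to 101.9 CPM in wt and 79.3 to 219.5 CPM in ko. The part of these other cell types in the values below was not tested, and in bulk RNA fewer cells of a type and less RNA per cell cannot be told apart.

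Solute carriers move amino acids, sugars, nucleosides, metals, ions, vitamins and lipids across membranes, most of them down a gradient or by coupling to sodium, protons or an exchanged solute rather than by splitting ATP. Those of the plasma membrane feed the cell, those of the lysosome return the products of digestion to the cytosol, and those of the Slc25 family connect mitochondria with the cytosol. In macrophages they take part in handling engulfed material, in cystine uptake for glutathione and in withholding metals from microbes.

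Compared per length, in FPKM (fragments scaled by transcript length and library total) as deposited, the level of members spanned a mean of 0.202 to 365.5 over the 6 libraries, with a median of 5.81. A mean of 50 FPKM or more was reached by 8 members, which together held 43.5% of the summed FPKM of all members, and 11 members lay under 1 FPKM. The highest levels belonged to mitochondrial and lysosomal carriers. Slc25a5, an ADP/ATP carrier of the inner mitochondrial membrane, averaged 365.5 FPKM, and Slc25a3, the mitochondrial phosphate carrier, 302 FPKM. Slc15a3, a lysosomal histidine and peptide transporter, averaged 223 FPKM. They were followed by Slc38a2 (72.2 FPKM), Slc25a4 (65.0 FPKM), Slc2a6 (59.0 FPKM), Slc7a11 (56.7 FPKM) and Slc39a7 (50.4 FPKM). The values of these last 5 ran into each other across libraries. At the edge of the rule, the third-highest count was 106 for Slc9a4, 109 for Slc25a27 and 117 for Slc25a23 just inside, and 99 for Slc13a3, 98 for Slc17a9 and 90 for Slc25a14 just outside.

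**Figure D1:**
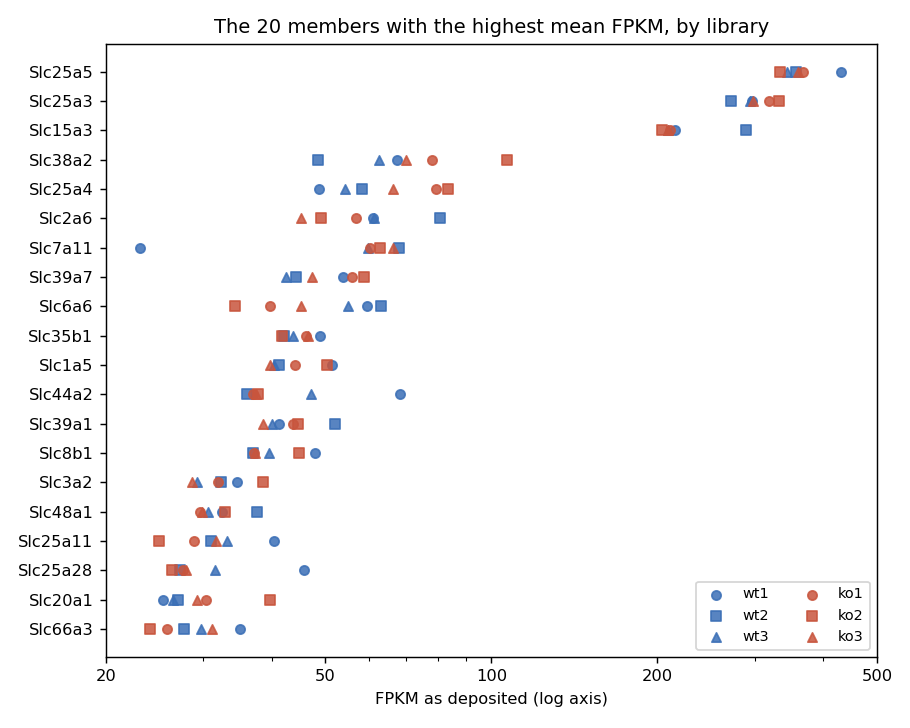
FPKM as deposited on a log axis for the 20 members with the highest mean FPKM, 1 point per library (blue wt, red ko; circle, square and triangle for replicates 1, 2 and 3). Slc25a5, Slc25a3 and Slc15a3 lie apart from the rest, and Slc7a11 in wt replicate 1 lies far to the left of its other libraries.

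No member passed an adjusted p of 0.05 with edgeR's quasi-likelihood test, and neither did any of the 13884 genes tested. The smallest adjusted p was 0.328 among members and among all genes. At an unadjusted p under 0.05, 30 members (18.0%) were lower and 9 (5.39%) were higher in the libraries labelled ko, whereas the background over all genes tested was 8.31% lower and 6.90% higher. Among the 10667 genes that meet the same count rule, the background was 10.4% lower and 6.81% higher. In either direction these 39 members were 23.4%, beside 15.2% of all genes and 17.2% of genes at the same count. All 39 had the same adjusted p of 0.328, so none of them is a call. With DESeq2, which called 13 genes higher (0.0949%) and 23 lower (0.168%) over 6 libraries, 0 members passed, with a smallest adjusted p of 0.0582.

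The median log2 fold change of the 167 members was -0.15, beside 0.022 over all genes tested, and 102 members (61.1%) had a lower estimate, beside 47.9% of all genes and 51.9% of genes at the same count. The 3 values of each group did not overlap in 39 members lower in ko (23.4%, background 12.6%, or 15.0% at the same count) and in 14 members higher in ko (8.38%, background 13.3%, or 12.6% at the same count). Summed over members, the level was 10144, 10291 and 9462 CPM in wt and 9081, 8853 and 9381 CPM in ko. With TMM scaling every ko library was thus below every wt library, though wt replicate 3 and ko replicate 3 lay close together. This order rests on the TMM factors, since a higher factor lowers the CPM. The factors of ko replicates 1 and 2 were higher than that of any wt library. The factors were 0.9326, 0.9334 and 0.98344 in wt and 1.0506, 1.1471 and 0.96928 in ko. Multiplying each sum by its factor undoes the scaling. The order then does not hold, since ko replicate 2 becomes the highest library. The split differed in limma on log2(FPKM + 1), another model on values with no TMM factor. There 12 members were lower (7.19%, background 4.03%) and 19 higher (11.4%, background 15.9%) at an unadjusted p under 0.05, the median of members was 0.0057 and that of all genes 0.092. Relative to all genes, the median of members was lower by this measure too, with a difference of -0.086 beside -0.17 in edgeR.

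**Figure D2:**
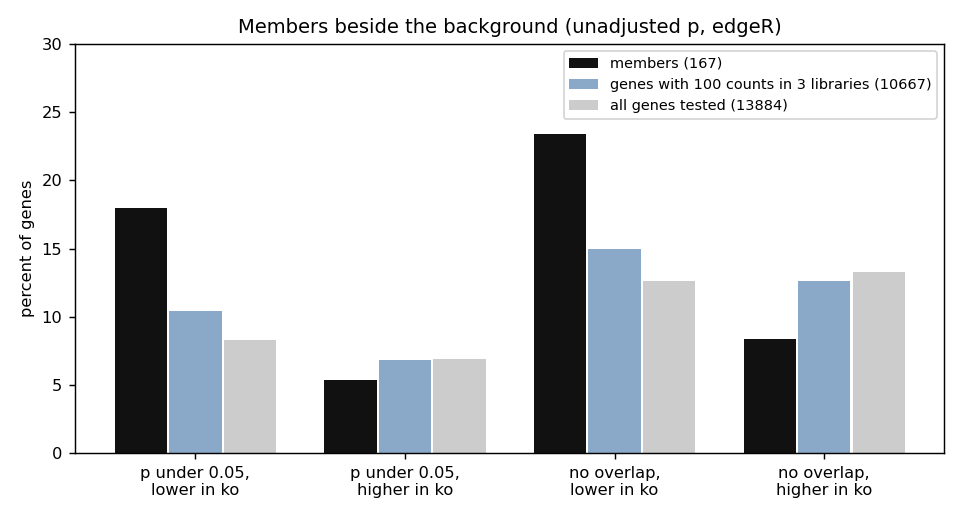
Percent of genes (vertical axis, from 0) with an edgeR unadjusted p under 0.05, or with no overlap between the 3 wt and 3 ko values, in each direction, for the 167 members (black), the 10667 genes with 100 counts in 3 libraries (blue) and all 13884 genes tested (grey). In both pairs of bars for lower in ko the members stand above the background, at 18.0% and 23.4%, and for higher in ko they stand below it, at 5.39% and 8.38%.

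Wt replicate 1 was the highest library in 74 members (44.3%, beside 33.0% of all genes) and ko replicate 2 was the lowest in 56 (33.5%, beside 26.9%). Without wt replicate 1, 19 members were lower (11.4%, background 5.38%) and 14 higher (8.38%, background 6.81%) at an unadjusted p under 0.05, and the median was -0.054, beside 0.031 over all genes. All 30 lower and all 9 higher members kept their sign, and 18 and 7 of them stayed under 0.05. Without ko replicate 1, 9 members were lower (5.39%, background 2.74%) and 2 higher (1.20%, background 2.75%). Without ko replicate 2, 11 were lower (6.59%, background 2.94%) and 3 higher (1.80%, background 1.81%). Without both wt replicate 1 and ko replicate 3, edgeR again gave an adjusted p under 0.05 to 0 members, with 28 lower (16.8%, background 10.4%) and 21 higher (12.6%, background 12.8%) at an unadjusted p under 0.05. DESeq2 on those 4 libraries called 18 members lower (10.8%, background 5.91%) and 11 higher (6.59%, background 4.23%), a fit chosen after the data were seen.

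**Figure D3:**
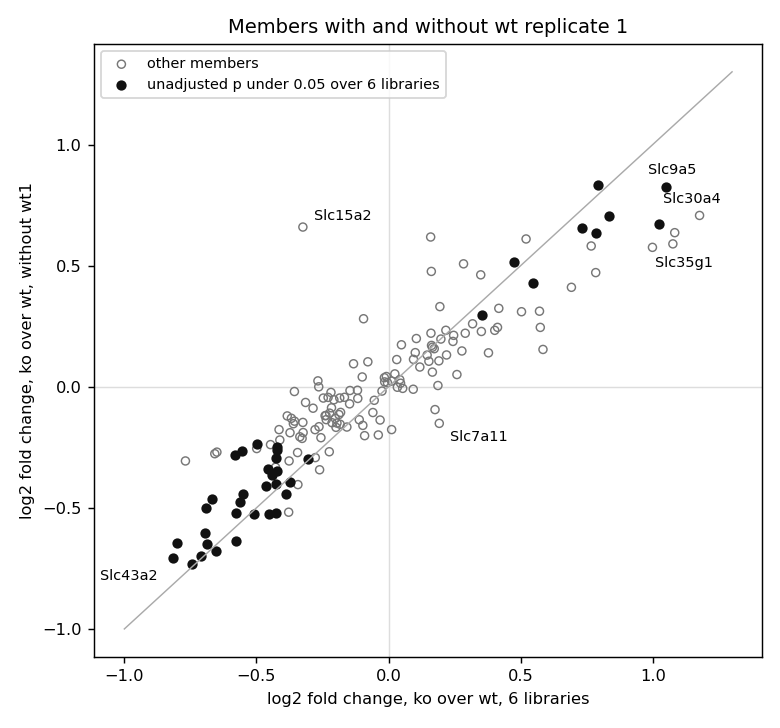
Log2 fold change of each of the 167 members, ko over wt, with all 6 libraries (horizontal axis) and without wt replicate 1 (vertical axis). Filled points had an edgeR unadjusted p under 0.05 over 6 libraries and lie on the same side of 0 on both axes, and 16 of the other members changed sign, Slc7a11 and Slc15a2 among them.

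**Figure D4:**
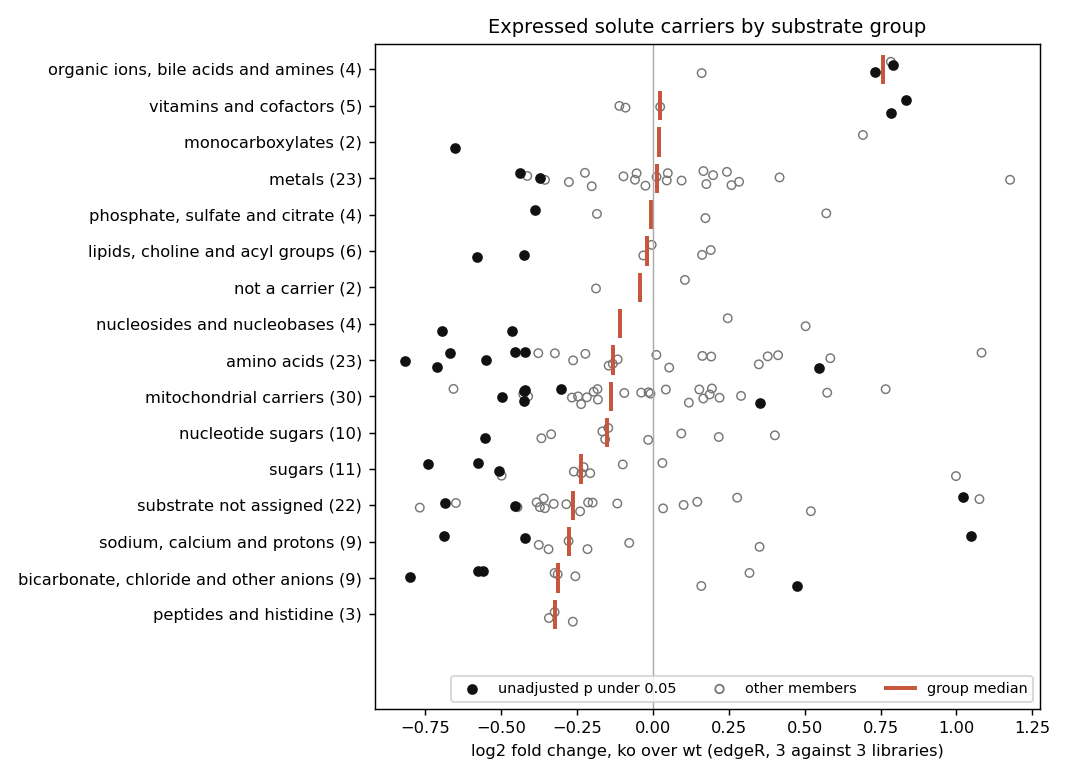
Log2 fold change of each member, ko over wt (horizontal axis, edgeR, 3 libraries against 3), by substrate group with its number of members, filled where the unadjusted p was under 0.05 and with a red bar at the group's median. Group medians run from -0.32 for peptides and histidine to 0.76 for organic ions, bile acids and amines. Without wt replicate 1 the medians of these groups were -0.000465 and 0.56.

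Amino acid carriers were 23 members, of which 6 were lower and 1 higher at an unadjusted p under 0.05, with a median of -0.13. That median was -0.0484 without wt replicate 1 and 0.0357 in limma on log2(FPKM + 1). For this group and the substrate groups below, the backgrounds at the same count are 10.4% lower and 6.81% higher. No group was tested against them. Slc43a2, a facilitative carrier of branched-chain and other neutral amino acids, lies at chr11:75529915-75577575 in GRCm38.p6. It was at 162, 133 and 127 CPM in wt and 78.2, 59.3 and 102 CPM in ko. Every ko value was below every wt value, and the log2 fold change was -0.82 ± 0.21 (SE, edgeR unadjusted p = 0.00475), the lowest of the 167 members. Slc6a6, the taurine transporter (chr6:91684048-91759063), was at 497, 526 and 436 CPM in wt and 295, 233 and 364 CPM in ko. The groups again did not overlap, with a log2 fold change of -0.71 ± 0.18 (edgeR unadjusted p = 0.00495). In DESeq2 on the 4 libraries without wt replicate 1 and ko replicate 3, Slc43a2 and Slc6a6 had adjusted p-values of 0.000117 and 0.000242. That fit was chosen after the data were seen, and it called 5.91% of all genes lower. On the same 4 libraries edgeR gave no member an adjusted p under 0.05. Slc16a10, an exporter of aromatic amino acids, was at 65.8, 87.5 and 65.7 CPM in wt and 53.2, 56.3 and 50.4 CPM in ko, for a log2 fold change of -0.45 ± 0.15 (edgeR unadjusted p = 0.0158). Slc66a1 and Slc36a1, lysosomal carriers of cationic and of small neutral amino acids, and Slc7a7, a plasma membrane exchanger of cationic amino acids, had log2 fold changes of -0.67, -0.42 and -0.55, and that of Slc36a1 was -0.25 without wt replicate 1.

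The amino acid carriers that work with the CD98 heavy chain had estimates of both signs, and differences between them were not tested. Beside Slc7a7, given above, Slc7a8 had a log2 fold change of -0.38 ± 0.18 and Slc7a6 one of 0.16 ± 0.15. Slc7a5, the large neutral amino acid exchanger LAT1, was at 44.3, 63.0 and 51.8 CPM in wt and 78.9, 94.0 and 59.5 CPM in ko. Ko replicate 3 lay under wt replicate 2, so the groups overlapped, and the log2 fold change was 0.55 ± 0.20 (edgeR unadjusted p = 0.0283). Its heavy chain Slc3a2 was at 346, 323 and 278 CPM in wt and 284, 313 and 276 CPM in ko, with a log2 fold change of -0.12 ± 0.13 (edgeR unadjusted p = 0.398), whose sign turned in limma on log2(FPKM + 1) (0.036). Slc7a11, the cystine and glutamate exchanger that pairs with the same chain, was at 232, 684 and 569 CPM in wt and 539, 515 and 642 CPM in ko. Wt replicate 1 was the low value, and the log2 fold change of 0.19 ± 0.35 became -0.15 without it. Slc38a2, the sodium-coupled carrier of small neutral amino acids, had a log2 fold change of 0.35 ± 0.17 (edgeR unadjusted p = 0.0752), and the glutamine carrier Slc1a5 one of -0.15 ± 0.14 (edgeR unadjusted p = 0.320), which was 0.014 in limma on log2(FPKM + 1).

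Transcripts of amino acid carriers are known targets of the amino acid response, in which the factor ATF4 binds promoter elements when amino acids run short. Of 14 tested genes of that response, 3 were higher and 2 lower at an unadjusted p under 0.05 (backgrounds 6.90% and 8.31%), with a median of 0.095. Atf4 was at 361, 317 and 305 CPM in wt and 464, 515 and 387 CPM in ko (log2 fold change 0.47 ± 0.15, edgeR adjusted p = 0.328). Asns, asparagine synthetase, was at 12.2, 28.8 and 21.3 CPM in wt and 40.1, 38.0 and 30.1 CPM in ko, with no overlap. Ddit4 and Cebpb had log2 fold changes of -0.67 and -0.82. To show where such letters lie in a member, the RefSeq promoter windows of GRCm38.p6 (250 bases before to 50 after each start) were searched on both strands for TGATGNAA, for the STAT-type palindrome TTCNNNGAA, since the study concerns STAT3, and for the E-box CACGTG. Windows were found for 127 of the 167 members, 168 windows in all. TGATGNAA was in 7 windows (4.17%, beside 3.97% of all 32851 windows), TTCNNNGAA in 10 (5.95%, beside 8.30%) and CACGTG in 24 (14.3%, beside 7.15%). Capitals mark the match in the stretches below, which are shown for Slc7a11 because it holds both kinds, for Slc28a2 because it was among the lower members, and for Slc22a4 and Slc20a1 as E-box examples.
Slc7a11 amino acid response, chr3:50443664-50443687, minus strand: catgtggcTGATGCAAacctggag
Slc7a11 amino acid response, chr3:50443645-50443668, minus strand: tggagaatTTGCATCAtcatgcag
Slc7a11 STAT-type, chr3:50443780-50443804, minus strand: atgctttgTTCTGGGAAatgctttg
Slc28a2 STAT-type, chr2:122426301-122426325, plus strand: aaacacatTTCAAAGAAgctcctcc
Slc22a4 E-box, chr11:54028319-54028340, minus strand: ctccctccCACGTGgggccgag
Slc20a1 E-box, chr2:129198743-129198764, plus strand: cggcaggtCACGTGgggcgcag
The second Slc7a11 match is the motif read from the other strand, so the pair faces each other. Both lie between the STAT-type match and the transcription start. A match describes letters in the window and not binding.

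Nucleoside carriers were 4 members, 2 with higher and 2 with lower estimates and a median of -0.11. The lower ones were among the 10 lower members with the smallest p, and the higher ones, Slc29a1 and Slc43a3, had log2 fold changes of 0.25 ± 0.14 and 0.50 ± 0.28, the latter 0.31 without wt replicate 1. Slc29a3, the lysosomal nucleoside transporter (chr10:60712072-60752849), was at 89.5, 81.9 and 67.4 CPM in wt and 48.5, 51.7 and 47.4 CPM in ko. The ko values lay close together and all under wt, with a log2 fold change of -0.69 ± 0.14 (edgeR unadjusted p = 0.00109). Slc28a2, the sodium-coupled carrier of purine nucleosides (chr2:122426357-122461152) whose promoter stretch is given above, was at 54.5, 48.3 and 48.9 CPM in wt and 33.8, 37.4 and 38.9 CPM in ko, with a log2 fold change of -0.46 ± 0.12 (edgeR unadjusted p = 0.00574).

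Sugar carriers were 11 members, of which 9 had lower estimates and 3 were lower at an unadjusted p under 0.05, with a median of -0.24. Slc37a2, a sugar-phosphate exchanger of the endoplasmic reticulum that macrophages express strongly (chr9:37229149-37255738), was at 50.5, 52.8 and 44.9 CPM in wt and 25.7, 26.2 and 36.6 CPM in ko. Its log2 fold change was -0.74 ± 0.17 (edgeR unadjusted p = 0.00291). Slc2a6, a glucose transporter family member of the lysosome, was at 140, 185 and 133 CPM in wt and 116, 91.4 and 99.8 CPM in ko, a log2 fold change of -0.58 ± 0.16 (edgeR unadjusted p = 0.00875). Slc2a3, a high-affinity glucose transporter, had a log2 fold change of -0.51. The wt and ko values of Slc37a2 and of Slc2a6 did not overlap. Slc5a3, the sodium-coupled inositol carrier, went the other way, at 3.91, 15.1 and 17.1 CPM in wt and 26.3, 27.9 and 18.0 CPM in ko, without overlap (log2 fold change 1.00 ± 0.49, edgeR unadjusted p = 0.0769), which was 0.58 without wt replicate 1.

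The 2 members that carry lactate and pyruvate gave opposite signs. Slc16a1 was at 38.3, 92.3 and 69.1 CPM in wt and 116, 123 and 83.6 CPM in ko, with overlapping groups and a log2 fold change of 0.69 ± 0.31 (edgeR unadjusted p = 0.0571), which was 0.41 without wt replicate 1. Slc16a7 was at 13.9, 14.2 and 14.9 CPM in wt and 9.08, 6.40 and 11.9 CPM in ko, without overlap and with a log2 fold change of -0.65 ± 0.24 (edgeR unadjusted p = 0.0280).

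Carriers of bicarbonate, chloride and other anions were 9 members, with 3 lower and 1 higher at an unadjusted p under 0.05 and a median of -0.31. Slc4a2, the chloride and bicarbonate exchanger AE2 (chr5:24423761-24440947), had the smallest p of all members. It was at 81.8, 75.2 and 69.2 CPM in wt and 50.8, 51.0 and 49.7 CPM in ko, so that the ko values differed among themselves far less than from wt, with a log2 fold change of -0.58 ± 0.11 (edgeR unadjusted p = 0.00105). Slc4a11, a relative that conducts protons, was at 32.5, 26.6 and 21.5 CPM in wt and 15.9, 13.5 and 16.9 CPM in ko (log2 fold change -0.80 ± 0.19, edgeR unadjusted p = 0.00348). Slc12a4, a potassium and chloride cotransporter and the member of this group with the highest FPKM (21.8), had a log2 fold change of -0.32 ± 0.17 (edgeR unadjusted p = 0.102), which was -0.15 without wt replicate 1. Slc12a2, which imports sodium, potassium and chloride together, went the other way, at 12.3, 11.2 and 11.3 CPM in wt and 18.5, 14.5 and 15.4 CPM in ko (log2 fold change 0.47 ± 0.16, edgeR unadjusted p = 0.0216). Slc4a7, a sodium and bicarbonate importer, had a log2 fold change of 0.32 ± 0.14 (edgeR unadjusted p = 0.0524), with ko replicates above wt.

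Of 9 carriers of sodium, calcium and protons, 7 had lower estimates, with a median of -0.28. Slc8a1, the sodium and calcium exchanger, had a log2 fold change of -0.69, and Slc8b1, its mitochondrial relative and the most abundant of the group at 40.6 FPKM, one of -0.22 ± 0.14, which was -0.087 without wt replicate 1. Slc9a5 was higher, at 2.73, 5.02 and 4.46 CPM in wt and 8.55, 11.8 and 4.90 CPM in ko, with an overlap and a log2 fold change of 1.05 ± 0.38 (edgeR unadjusted p = 0.0263). It overlaps Plekhg4 in the annotation, and since the strand setting of the counting was not stated, its reads are uncertain. The same holds for the 68 members with an overlapping annotated gene, including Slc31a1 and Slc15a3.

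Mitochondrial carriers, with 30 members the largest substrate group, had 5 lower and 1 higher at an unadjusted p under 0.05 and a median of -0.14. That median was -0.00928 without wt replicate 1 and 0.0333 in limma on log2(FPKM + 1). Slc25a51, the mitochondrial NAD carrier (chr4:45395923-45408917), was at 118, 154 and 138 CPM in wt and 100, 95.1 and 109.8 CPM in ko, with a log2 fold change of -0.43 ± 0.13 (edgeR unadjusted p = 0.0143). Slc25a11 (oxoglutarate and malate), Slc25a44 (branched-chain amino acids) and Slc25a12 (aspartate and glutamate) had log2 fold changes of -0.43, -0.42 and -0.30. Slc25a28, an iron carrier, had one of -0.50, which was -0.24 without wt replicate 1. The ADP/ATP carriers Slc25a4 and Slc25a5 had opposite signs. Slc25a4 was at 69.6, 83.2 and 73.5 CPM in wt and 101, 97.0 and 91.2 CPM in ko, without overlap (log2 fold change 0.35 ± 0.12, edgeR unadjusted p = 0.0174). Slc25a5 was at 599, 496 and 452 CPM in wt and 454, 377 and 481 CPM in ko, with overlap (log2 fold change -0.24 ± 0.16, edgeR unadjusted p = 0.176). These are close paralogs, and the division of reads between them was not tested.

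Carriers of metals were 23 members with a median of 0.012, 2 lower and 0 higher at an unadjusted p under 0.05. Slc31a1, the copper importer, was at 96.5, 107 and 92.7 CPM in wt and 77.5, 65.9 and 85.5 CPM in ko (log2 fold change -0.37 ± 0.13, edgeR unadjusted p = 0.0254). The zinc importer Slc39a3 had a log2 fold change of -0.44. Slc39a7, which releases zinc from the endoplasmic reticulum and was the most abundant of the group, had one of 0.049 ± 0.14, Slc39a14, an importer of zinc and iron, -0.025 ± 0.14, the zinc exporter Slc30a1 0.28 ± 0.34, the iron importer Slc11a2 0.42 ± 0.24 (0.14 without ko replicate 2) and the heme carrier Slc48a1 -0.28 ± 0.13. Of these, the sign of Slc39a14 turned in limma on log2(FPKM + 1) (0.11) and with upper quartile scaling (0.00796). Of 12 tested genes of metal binding and handling outside the family, 4 had higher and 8 lower estimates, with a median of -0.17. At an unadjusted p under 0.05, 1 was higher and 1 lower (backgrounds 6.90% and 8.31%). Tfrc, the transferrin receptor, was at 17.6, 30.4 and 47.2 CPM in wt and 69.0, 77.8 and 44.1 CPM in ko.

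Over all 6 libraries, the members beyond 2-fold were all higher in the libraries labelled ko. They were 5 members (2.99%, beside 9.56% of all genes tested), and in all 5 wt replicate 1 was the lowest library. Without that library 0 members (beside 5.82% of all genes tested) lay beyond 2-fold. The 5 were Slc9a5 and Slc22a23 and, named after their values were seen, the vesicular zinc carrier Slc30a4, the serine and alanine carrier Slc1a4 and Slc35g1. Slc30a4 was at 16.3, 102 and 89.2 CPM in wt and 190, 152 and 128 CPM in ko, a log2 fold change of 1.18 ± 0.57 (edgeR unadjusted p = 0.0749), which was 0.71 without wt replicate 1. Slc1a4 was at 0.928, 5.36 and 3.72 CPM in wt and 8.85, 7.88 and 4.46 CPM in ko, and Slc35g1 at 1.13, 8.60 and 6.87 CPM in wt and 13.9, 12.8 and 8.26 CPM in ko. Without wt replicate 1 the log2 fold changes were 0.64 for Slc1a4, 0.59 for Slc35g1 and 0.83 for Slc9a5. Summed fibroblast markers were lowest in the same library, at the 23.8 CPM given above (Col3a1 19.0 CPM), though Col1a1 and Col1a2 were lowest in wt replicate 3. T cell markers (22.4 CPM) and epithelial or carcinoma markers (35.2 CPM, beside 79.9 to 191.4 CPM) also had their lowest sum there. Krt8 was at 9.90, 116.7 and 59.1 CPM in wt and 170.9, 165.3 and 105.5 CPM in ko, but Cdh1 was highest in wt replicate 1. Other marker lists had their lowest sum elsewhere. The part of these cell types was not tested.

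Vitamin carriers were 5 members, of which the 2 carriers of the Slc19 family were higher. Slc19a2, a thiamine transporter (chr1:164249046-164265385), was at 10.6, 16.5 and 13.5 CPM in wt and 24.7, 27.4 and 17.8 CPM in ko, with a log2 fold change of 0.78 ± 0.23 (edgeR unadjusted p = 0.00994), the smallest p among higher members. Slc19a1, the reduced folate carrier, which also imports cyclic dinucleotides (chr10:77032269-77050432), was at 4.02, 5.75 and 5.05 CPM in wt and 9.44, 10.7 and 6.37 CPM in ko, with a log2 fold change of 0.84 ± 0.27 (edgeR unadjusted p = 0.0155). Neither pair of groups overlapped. DESeq2 on the 4 libraries, the fit chosen after the data were seen, gave adjusted p-values of 0.0136 and 0.0317 and called 4.23% of all genes higher. On those libraries edgeR gave neither gene an adjusted p under 0.05. Slc23a2, the vitamin C carrier and the most abundant of the group, was at 137, 197 and 152 CPM in wt and 148, 153 and 155 CPM in ko (log2 fold change -0.091 ± 0.15), and its sign turned in limma on log2(FPKM + 1) (0.071).

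The group of organic ions, bile acids and amines had 4 members, all at low levels (0.596 to 3.2 FPKM). All 4 had higher estimates, with a median of 0.76. The urea transporter Slc14a1, placed in this group, had a log2 fold change of 0.78 ± 0.34, which was 0.47 without wt replicate 1. That of Slc22a5 was 0.16 ± 0.25. Slc22a4, which imports ergothioneine, was at 9.28, 9.81 and 12.0 CPM in wt and 15.4, 24.4 and 11.7 CPM in ko, with overlap (log2 fold change 0.73 ± 0.28, edgeR unadjusted p = 0.0336), which was 0.38 without ko replicate 2, its highest library. Its neighbour and paralog Slc22a21, a carnitine carrier, was at 3.35, 2.54 and 3.58 CPM in wt and 6.08, 6.61 and 3.69 CPM in ko (log2 fold change 0.79 ± 0.31, edgeR unadjusted p = 0.0341). Both overlap the annotated gene Gm30927 on chromosome 11, so these are not independent loci. Slc22a23, with no assigned substrate, was at 3.49, 10.7 and 8.80 CPM in wt and 17.4, 17.1 and 12.2 CPM in ko, and its log2 fold change of 1.02 ± 0.39 was 0.67 without wt replicate 1.

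In the smaller groups, Slc44a2, a choline transporter-like protein, was at 284, 150 and 186 CPM in wt and 137, 128 and 150 CPM in ko, and its log2 fold change of -0.58 ± 0.23 was -0.28 without wt replicate 1. Slc27a4, a fatty acid transport protein, had one of -0.43 ± 0.17 without overlap. Slc35c1, the GDP-fucose carrier of the Golgi, had one of -0.55 ± 0.22, which was -0.26 without wt replicate 1, whereas Slc35b1, the most abundant of the 10 nucleotide sugar carriers and known to exchange ATP and ADP in the endoplasmic reticulum, had one of -0.15 ± 0.14. Slc15a3 was at 541, 728 and 498 CPM in wt and 471, 417 and 506 CPM in ko, a log2 fold change of -0.34 ± 0.17 (edgeR unadjusted p = 0.0870). Slc26a2, a sulfate carrier, was at 16.3, 17.0 and 19.3 CPM in wt and 13.0, 12.5 and 14.6 CPM in ko (log2 fold change -0.39 ± 0.15, edgeR unadjusted p = 0.0377), and Slc20a1, a phosphate importer, had a log2 fold change of 0.17 ± 0.12. Among 22 members with no assigned substrate, Slc35f6 had a log2 fold change of -0.46 ± 0.15 (edgeR unadjusted p = 0.0195) and Slc66a3, the most abundant of them, -0.33 ± 0.18. The 2 members that carry an Slc name but are no carriers, Slc4a1ap and Slc7a6os, had log2 fold changes of -0.19 ± 0.15 and 0.11 ± 0.17.

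**Figure D5:**
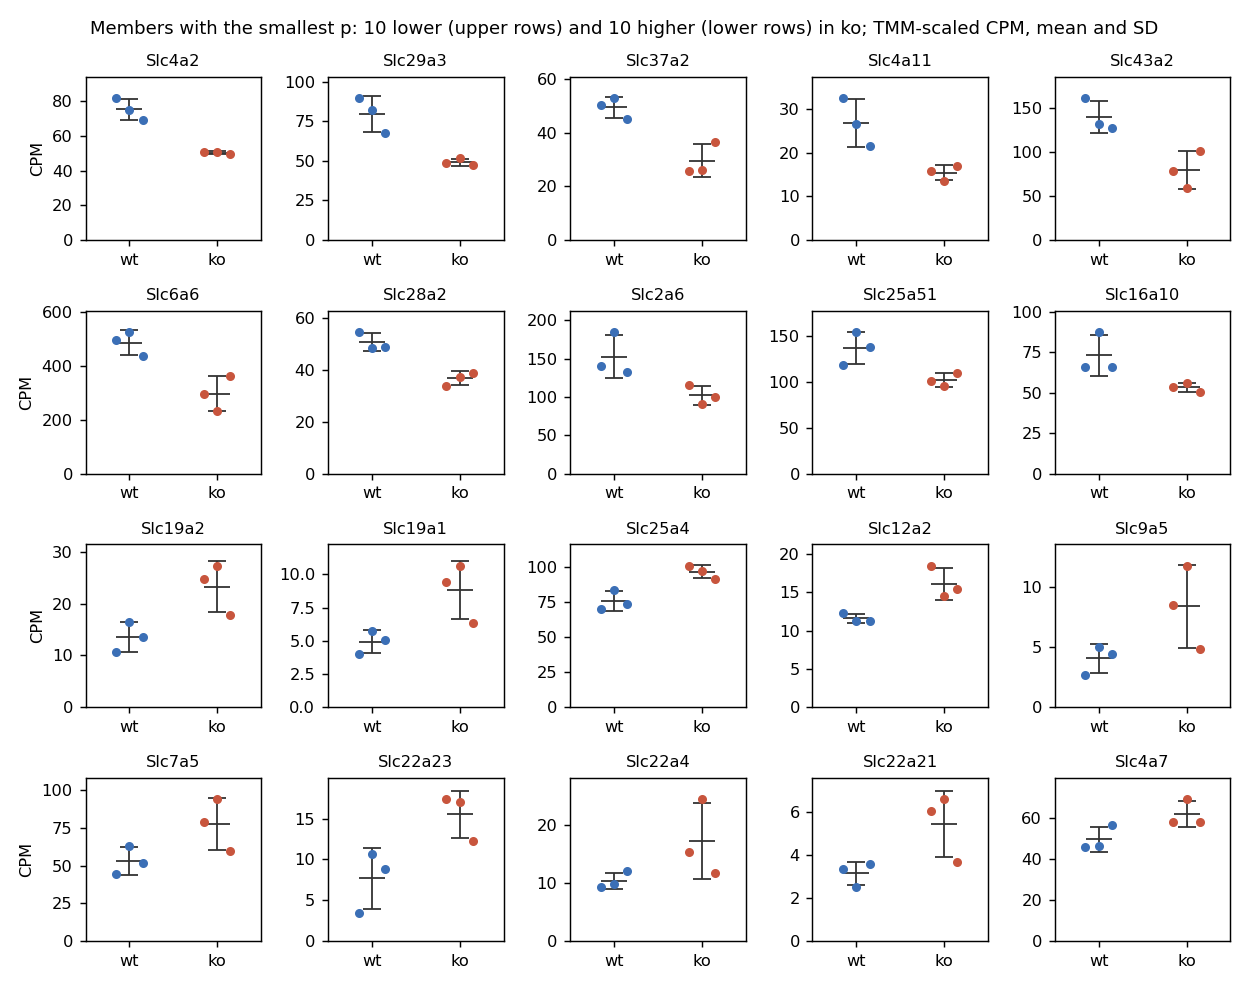
TMM-scaled CPM (vertical axes, from 0) of the 10 lower and 10 higher members with the smallest edgeR p, 1 point per library in the order of replicates 1 to 3 (blue wt, red ko), with the mean and SD of each group. In all 10 lower members every ko value is below every wt value, and among the higher members Slc9a5, Slc7a5 and Slc22a4 overlap.

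Among members with an unadjusted p under 0.05, the 30 lower ones had a median level of 11.3 FPKM and the 9 higher ones of 2.07 FPKM. Wt replicate 1 was the highest library in 70 of the 102 members with a lower estimate and the lowest in 37 of the 65 with a higher estimate. These counts are in part built in, since wt replicate 1 enters the estimate whose sign splits the members. Over all genes tested, of either sign, it was the highest in 33.0% and the lowest in 33.5%.

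Transport genes outside the Slc names gave these values. The ATPases that build the gradients used by solute carriers had 23 lower estimates of 25 tested, with a median of -0.29 and 6 lower and 0 higher at an unadjusted p under 0.05. Atp6v1a, a catalytic subunit of the proton pump of lysosomes, was at 273, 295 and 275 CPM in wt and 198, 162 and 242 CPM in ko (log2 fold change -0.49 ± 0.16). Of 36 tested transporters under other names and partner proteins, 27 had lower estimates, with 7 lower and 1 higher at an unadjusted p under 0.05. Npc1, which moves cholesterol out of the lysosome, was at 159, 167 and 145 CPM in wt and 96.9, 92.9 and 115 CPM in ko (log2 fold change -0.63 ± 0.13, edgeR adjusted p = 0.328). Sfxn1, a mitochondrial serine carrier, was the higher one, at 20.6, 29.2 and 26.8 CPM in wt and 38.0, 39.3 and 34.1 CPM in ko. Of 25 ATP-driven (ABC) transporters, 15 had lower estimates, with 7 lower and 0 higher at an unadjusted p under 0.05 and a median of -0.13. The lipid exporter Abcg1 was at 95.2, 58.9 and 70.3 CPM in wt and 42.7, 49.6 and 44.3 CPM in ko. The backgrounds of 8.31% lower and 6.90% higher hold for these lists, and the macrophage markers that were lower in the same libraries were Csf1r, Cd68, C1qa, C1qb, C1qc and Fcgr1, 6 of 12 at an unadjusted p under 0.05.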

How the data were processed

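Reads came from 6 libraries, 3 per group. The methods describe their RNA as that of sorted macrophages, and the labels name tumor tissue. The values the authors deposited are raw counts for each gene and FPKM, and FPKM carry the library total but no TMM factor. The methods name SMARTer cDNA libraries and paired-end sequencing, whereas the labels describe small RNA adapters. The submitters' processing notes name mm10, and the aligner, counter and strand setting are not given in the sources used here. Genes were filtered with filterByExpr, scaled by TMM and tested with edgeR 4.0.16 (glmQLFit and glmQLFTest, R 4.3.3), with Benjamini-Hochberg adjustment over 13884 genes. DESeq2 1.42.0 and limma 3.58.1 on log2 of the deposited FPKM plus 1 or 0.1 were alternatives, as were other scalings, filters and thresholds, a replicate block and each library left out. A log2 fold change is ko minus wt and its SE is the estimate over the root of the F statistic. The fitting steps were run on simulated data, with outcomes not given here. The changes set there were larger than that of any member. No simulated library was set apart as wt replicate 1 was, so the run does not bear on that.

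Members, substrate groups and gene lists were chosen with earlier results of these data known. Named were the 10 members of smallest p in each direction, the most abundant member and that of smallest p in each substrate group, members listed for a known function, 3 genes on each side of the count threshold, and Npm1. Others with values were named after their values were seen. Libraries were checked for duplicates, and chi-square per gene between replicates was 34.3 to 146.3. Marker lists other than macrophage, monocyte, neutrophil, fibroblast and T cell gave medians of -0.034 (dendritic cell), 0.91 (NK cell), 0.000455 (B cell), -0.32 (endothelial), 0.76 (epithelial or carcinoma) and -0.75 (erythroid). Coordinates and promoter windows are RefSeq's for GRCm38.p6. Some items that the rule names are not reported here.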

Additional observations from a re-analysis of the deposited data

How the results depend on the processing

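No member had an edgeR adjusted p under 0.05 in any setting run, and DESeq2 on the 4 libraries without wt replicate 1 and ko replicate 3 called 29. There 18 members were higher at an unadjusted p under 0.05 (10.8%, background 6.57%), Slc7a11 was at -0.29, and group medians were -0.0702 (amino acids), -0.21 (lipids, choline and acyl groups), -0.12 (metals), -0.0574 (mitochondrial carriers) and 0.061 (phosphate, sulfate and citrate). Without a filter 14 members were higher (background 6.71%) and 34 lower (background 6.31%) at an unadjusted p under 0.05. Leaving libraries out gave 0 adjusted calls with edgeR and a median of -0.217 to -0.054. At an unadjusted p under 0.05, 2 to 21 members were higher and 9 to 31 lower. The 2 and the 9 came without ko replicate 1 (backgrounds 2.75% and 2.74%). The 21 came without wt replicate 1 and ko replicate 3 (background 12.8%), and the 31 has no share over all genes beside it. Without overlap, 15 to 43 members were higher (background 14.9% to 31.6%) and 41 to 65 lower (background 14.5% to 26.1%). Fewer libraries make overlap rarer for every gene.

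With limma on log2(FPKM + 1), 19 members were higher and 12 lower, with a median of 0.00567, and with plus 0.1, 18 (background 14.7%) and 12 (background 4.02%), with a median of -0.00338, while the median of all genes moved to 0.0916 and 0.16. Group medians with plus 1 were 0.0357 (amino acids), -0.0957 (anions), 0.18 (metals), 0.0333 (mitochondrial), 0.30 (monocarboxylates), 0.11 (not a carrier), 0.0287 (nucleosides), -0.00267 (nucleotide sugars), 0.15 (phosphate), -0.10 (sodium), -0.0851 (not assigned) and -0.0598 (sugars). With plus 0.1 they were 0.0365 (amino acids), 0.12 (lipids), 0.19 (metals), 0.0429 (mitochondrial), 0.11 (not a carrier), 0.0362 (nucleosides), -0.00774 (nucleotide sugars), 0.15 (phosphate) and -0.096 (not assigned). Slc1a5, Slc23a2, Slc39a14 and Slc3a2 were at 0.0136, 0.0711, 0.11 and 0.0357 with plus 1 and at 0.014, 0.0751, 0.12 and 0.0365 with plus 0.1. Slc39a14 was at 0.00304 with 10 counts required in every library and at 0.00796 with upper quartile scaling, where nucleosides had a median of -0.0708. A count threshold of 50 (181 members) gave 0.24 for nucleosides and -0.22 for phosphate, and 200 (157 members) gave 0.40 for vitamins.

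Over the fits that left libraries out, group medians ran from -0.22 to -0.0389 (amino acids), -0.41 to -0.15 (anions), -0.17 to 0.039 (lipids), -0.0834 to 0.0447 (metals), -0.24 to -0.00928 (mitochondrial), -0.18 to 0.17 (monocarboxylates), -0.11 to 0.11 (not a carrier), -0.14 to -0.0757 (nucleosides), -0.21 to -0.0572 (nucleotide sugars), 0.50 to 0.89 (organic ions), -0.47 to -0.000465 (peptides), -0.0655 to 0.0972 (phosphate), -0.38 to -0.18 (sodium), -0.35 to -0.12 (not assigned), -0.36 to -0.14 (sugars) and -0.0166 to 0.16 (vitamins). Slc7a11 ran from -0.25 to 0.49, Slc23a2 from -0.22 to 0.0702, Slc39a14 from -0.12 to 0.0464, Slc39a7 from -0.0577 to 0.20, Slc7a6os from -0.0304 to 0.29, Slc30a1 from -0.11 to 0.76 and Slc1a5 from -0.25 to 0.00458. With no change of sign, the estimate was over 1.5 times smaller at one end for Slc38a2 (0.22 to 0.53), Slc27a4 (-0.57 to -0.28), Slc25a5 (-0.34 to -0.12), Slc4a1ap (-0.27 to -0.0785), Slc35b1 (-0.24 to -0.0528), Slc15a3 (-0.47 to -0.17), Slc20a1 (0.0845 to 0.22), Slc66a3 (-0.52 to -0.21), Slc3a2 (-0.22 to -0.0131) and Slc48a1 (-0.38 to -0.18). The cause was not tested.

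With the replicate number as a block, 9 members were higher and 23 lower at an unadjusted p under 0.05, with no share over all genes to set beside them. The median of members was then -0.15, beside 0.028 over all genes tested. Correlations of same-numbered samples, as deviations from their group means across genes, were -0.24, 0.060 and -0.34. With 3 libraries per group and wt replicate 1 standing apart, they cannot decide whether the number marks a pair or a batch. Total counts were 38023410 to 38147320 in wt and 36550775 to 37733090 in ko, and the part of this gap was not tested.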
